A study of Mus musculus with 2 samples.

Results

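Forkhead (Fox) genes encode transcription factors that share a winged-helix DNA-binding domain and divide into subfamilies named by a letter. In developing organs, members mark and pattern different tissues: Foxa genes act in epithelia of endodermal origin, Foxf genes in the mesenchyme that answers hedgehog signals from such epithelia, Foxc and Foxd genes in mesoderm and stroma, and Foxm1 in dividing cells. The family was taken as every non-control probe of the array whose gene name is Fox followed by 1 letter and a number. This gave 57 probes for 44 genes, out of 31791 gene names and 39429 probes on the array, and the gene listed as Foxf1a is called Foxf1 here.

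The RNA came from ureters, the tubes that join kidney and bladder, dissected from NMRI mouse embryos at stage E14.5. Bmp4cKO embryos had the genotype Tbx18(cre/+);Bmp4(fl/fl), in which cre recombinase takes the place of 1 copy of Tbx18 and acts where Tbx18 is active, the ureteric mesenchyme, on floxed alleles of Bmp4, which encodes a secreted ligand (a bone morphogenetic protein). Control embryos had the genotype Tbx18(+/+);Bmp4(fl/?), without cre and with at least 1 floxed Bmp4 allele. There were 2 two-colour arrays, replicate 1 and replicate 2, each holding 1 Bmp4cKO RNA and 1 control RNA, so 4 RNAs in all. On replicate 1 the Bmp4cKO RNA was green and the control RNA red, and on replicate 2 the dyes were exchanged. No source used here says whether an RNA came from 1 embryo or from several. The p-values rest on the spread between these 2 arrays and on a variance shared over all probes. That spread may be partly technical, but the RNAs labelled control were not repeats of 1 RNA. Their signals of Ddx3y, a Y-linked gene, were 5.75 on replicate 1 and 2720 on replicate 2. Both arrays lay on 1 slide and carried the same scan time.

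Bmp4 itself went against the labels, so all directions here are those of the dye labels and would turn round with them. Its processed signals, the scanner software's background-adjusted and dye-normalized intensities, were 29491 and 27393 in the RNAs labelled Bmp4cKO and 3613 and 1973 in those labelled control. As a log2 ratio, always Bmp4cKO over control, this was 3.04 on replicate 1 and 3.71 on replicate 2. The probe lies at chr14:47003391-47003450 (mm9), and no source used here says whether the deletion includes that stretch. Tbx18 also stood higher in the RNAs labelled Bmp4cKO, at a mean log2 ratio of 0.97 ± 0.17 (SD, n = 2 arrays; limma adjusted p = 0.0398). In the authors' deposited table the signs run the other way. Its signed folds were -8.16 and -13.9 for this Bmp4 probe, -1.95 and -2.04 for Tbx18 and -2.03 and -2.76 for Foxa1. By the dye labels these genes are all higher. In either set of signs, Tbx18 and Foxa1 run with Bmp4. A gene given here as higher was therefore higher in the RNAs with more Bmp4 signal, and a gene given as lower was lower in them. Which set of signs follows the genotypes was not tested. Both RNAs of replicate 2 are labelled male, yet the Y-linked gene Ddx3y had a processed signal there of 6.25 in the RNA labelled Bmp4cKO, against 2720 in that labelled control. Xist, an X-linked gene that marks female cells, had 2120 there against 85.2 on its brighter probe. The male label therefore does not match the RNA labelled Bmp4cKO on that array. On replicate 2, genotype label and sex by these genes cannot be told apart. Values are given for each array so that replicate 1 can be read alone. Genes that define the ureter were present in the RNAs, since 19 of 19 urothelial and 10 of 11 smooth muscle genes of the lists used here were measured.

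Of the 57 forkhead probes, 46 for 35 genes were tested, meaning that they were well above background in both RNAs of at least 1 genotype label, and 40 were so in all 4 RNAs. One forkhead gene, Foxa1, passed the threshold as higher in the RNA labelled Bmp4cKO and none passed as lower (limma, adjusted p under 0.05). Over all 27676 probes tested, 0.835% were called higher, 0.965% lower and 1.8% in either direction. At an unadjusted p under 0.05 there were 5 forkhead probes higher and 5 lower, which is 21.7% of the family's probes, beside 14.4% of all probes. On both arrays alike, 11 forkhead probes were higher (23.9%, beside 28.4% of all probes) and 15 lower (32.6%, beside 30.8%). The other 20 pointed in opposite directions (43.5%, beside 40.8%). None was at least 2-fold higher on both arrays, beside 0.538% of all probes, and none 2-fold lower on both, beside 0.564%. The median log2 ratio of the tested forkhead probes was -0.02, and that of all probes was -0.01. As a family, the forkhead genes therefore had no common direction, while single members ran from 1.20 for Foxa1 to -0.75 for Foxd2 on the log2 scale. Between the arrays, the ratios of the 46 probes had a Pearson correlation of 0.74 and a Spearman correlation of 0.52, against 0.47 and 0.31 over all probes. Probes share the arrays and their dyes and are no independent replicates.

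**Figure D1:**
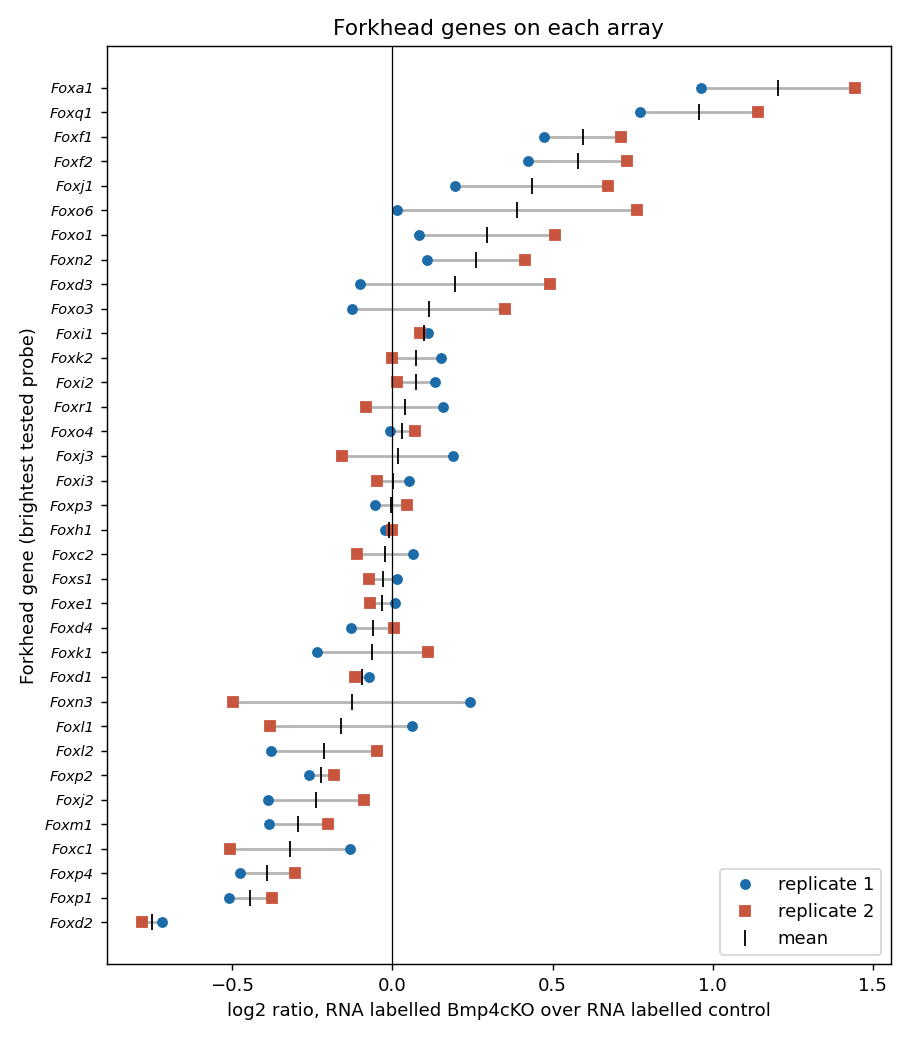
The log2 ratio of Bmp4cKO over control by the dye labels (horizontal axis) is plotted for the brightest tested probe of each of 35 forkhead genes, with a circle for replicate 1, a square for replicate 2 and a tick for their mean. Foxa1, Foxq1, Foxf1 and Foxf2 lie to the right of 0 on both arrays, and Foxd2, Foxp1 and Foxp4 to the left on both.

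Foxa1 encodes a pioneer factor, one that can bind closed chromatin, of endodermal epithelia and the urothelium. Its processed signals were 7242 and 11025 in the RNAs labelled Bmp4cKO, against 3563 and 4001 in those labelled control. Both Bmp4cKO values exceeded both control values. The share of all probes whose values separate in this way is not given here. This and the later statements on overlap therefore only describe the signals. Replicate 1 gave a log2 ratio of 0.96 and replicate 2 one of 1.44, and their mean of 1.20 ± 0.34 (SD, n = 2 arrays) is 2.30-fold (limma adjusted p = 0.0396). The call was lost with median centring in place of loess (adjusted p = 0.370), without normalization and in a fit of separate channels with neither a replicate block nor a dye term (adjusted p = 0.0507). It was kept in that fit with a dye term (limma adjusted p = 0.0217), and the ratio stayed between 1.20 and 1.26 under all 15 alternatives that carry a test. Its probe lies at chr12:58641764-58641823 (mm9). The other Foxa genes gave no ratio that could be used: Foxa3, a factor of liver and gut, was well above background in no RNA, and each of 2 probes of Foxa2, a factor of floor plate and endoderm, was so in 1 RNA of each genotype label.

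Urothelial genes stood higher beside Foxa1. Of 19 measured, 8 were called higher and 0 lower, with a median log2 ratio of 0.78, beside -0.01 over all genes. Over all 21977 genes, each on its brightest tested probe, limma called 195 higher and 225 lower. Of the 21977, 3210 had a limma unadjusted p under 0.05, 6204 were higher on both arrays and 6725 lower on both. The counts of the later gene lists are to be read beside these. Upk1b, Upk3a and Upk2, which encode uroplakins of the urothelial surface, stood at 3.72, 2.48 and 2.41, and Perp, a desmosome gene, at 2.60. The summed processed signal of the list was 128134 and 143975 in the RNAs labelled Bmp4cKO, against 64733 and 73035 in those labelled control, and no member was below background in every RNA. Epcam, an adhesion gene of all epithelial cells, stood at 0.14 and was not called. In bulk RNA, fewer cells of a type and less RNA per cell cannot be told apart, and the part of urothelial content in the Foxa1 value was not tested.

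The promoter of Foxa1 is shown because it was the single forkhead gene called and because its sequence holds a forkhead motif. It is the 250 bases before the gene's start in RefSeq (GRCm38.p6, chr12:57546112-57546361, minus strand), 5′ to 3′ on the gene's strand, with the motif in capitals. Promoters of Foxf2 (chr13:31625566-31625815, plus strand) and Foxc1 (chr13:31806396-31806645, plus strand) are set beside it because these neighbouring genes had ratios of opposite sign, and that of Foxd2 (chr4:114908899-114909148, minus strand) because that gene had the lowest ratio of the family.
Foxa1: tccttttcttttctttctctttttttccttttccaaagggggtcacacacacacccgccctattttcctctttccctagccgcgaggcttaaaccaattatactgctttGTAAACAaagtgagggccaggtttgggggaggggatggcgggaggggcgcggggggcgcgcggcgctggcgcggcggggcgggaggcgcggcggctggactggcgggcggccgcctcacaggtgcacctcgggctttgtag
Foxf2: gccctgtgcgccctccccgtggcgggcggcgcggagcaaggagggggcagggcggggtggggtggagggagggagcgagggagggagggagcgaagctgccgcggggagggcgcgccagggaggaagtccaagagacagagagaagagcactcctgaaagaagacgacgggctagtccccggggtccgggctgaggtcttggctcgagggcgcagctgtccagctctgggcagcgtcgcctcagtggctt
Foxc1: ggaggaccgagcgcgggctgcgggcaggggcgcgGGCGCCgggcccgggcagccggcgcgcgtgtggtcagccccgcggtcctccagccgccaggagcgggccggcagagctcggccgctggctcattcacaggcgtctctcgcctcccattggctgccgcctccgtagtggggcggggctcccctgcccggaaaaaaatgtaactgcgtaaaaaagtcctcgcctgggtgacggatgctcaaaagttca
Foxd2: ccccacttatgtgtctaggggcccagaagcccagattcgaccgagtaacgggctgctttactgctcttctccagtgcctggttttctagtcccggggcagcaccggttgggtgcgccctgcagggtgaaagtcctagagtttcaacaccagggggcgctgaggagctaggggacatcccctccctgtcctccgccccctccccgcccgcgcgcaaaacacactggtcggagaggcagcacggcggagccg

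Both strands of these windows were searched for 3 motifs that do not overlap in them. The forkhead motif TGTTTAC, which reads GTAAACA on the other strand, began 141 bases before the Foxa1 start. It was in 1 of 33 forkhead promoters and in 3.17% of 32851 promoters of the same length. The motif GACCACCCA, bound by the GLI factors of the hedgehog pathway, was in 0 of the 33 and in 0.23% of all. The palindrome GGCGCC, a GC-rich element that SMAD factors of BMP signalling can bind, was in 5 of the 33, for Foxa2, Foxa3, Foxc1 and Foxp1, and in 9.59% of all. These matches describe letters in the windows. RefSeq promoters were matched for 28 of the 44 genes, and those of Foxf1, Foxc2, Foxl1, Foxm1 and Foxq1 were not among them.

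Foxq1, a factor known in mice for its role in the hair shaft and in mucin production by the stomach, had the next highest ratio after Foxa1. Its processed signals were 7544 and 12102 in the RNAs labelled Bmp4cKO, against 4323 and 5434 in those labelled control, without overlap. The log2 ratio was 0.77 and 1.14 on the arrays, a mean of 0.96 ± 0.26 (SD, n = 2 arrays), which is 1.94-fold. It missed the threshold (limma adjusted p = 0.0525) and passed it under 7 of 15 alternatives. The probe lies at chr13:31652206-31652265 (mm9).

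**Figure D2:**
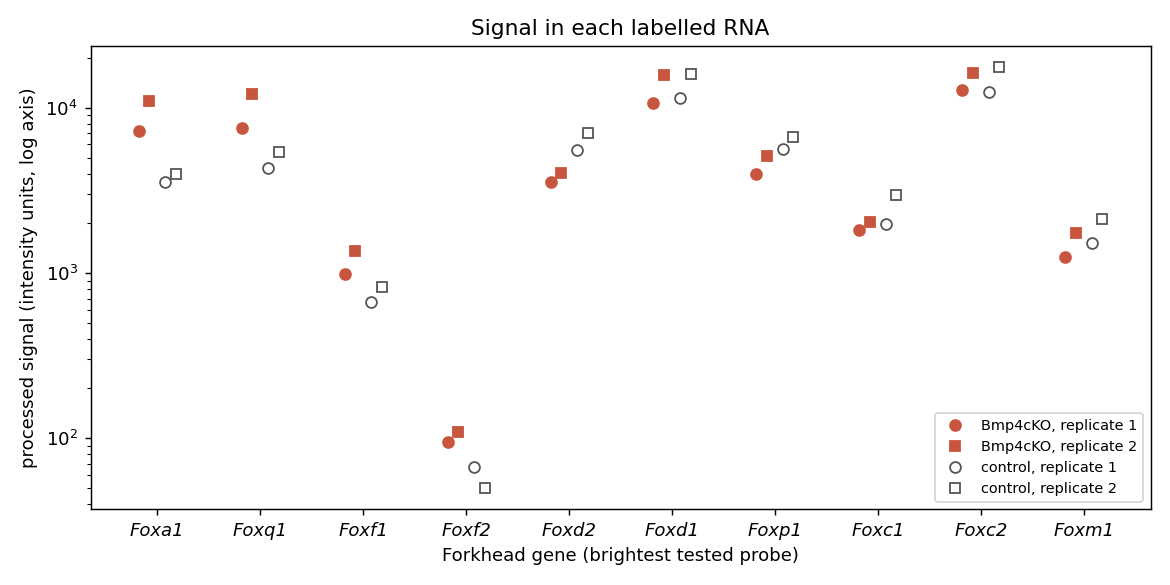
Processed signal on a log axis is plotted for 10 forkhead genes, with filled marks for the RNAs labelled Bmp4cKO, open marks for those labelled control, circles for replicate 1 and squares for replicate 2. The filled marks of Foxa1, Foxq1, Foxf1 and Foxf2 lie above both open marks of the same gene, those of Foxd2 and Foxp1 below both, and the filled and open marks of Foxd1 and of Foxc2 overlap. The share of all probes that separate in this way is not given.

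The Foxf genes encode factors of visceral mesenchyme and are known as targets of hedgehog signalling, and Foxf1 is also needed for blood vessel development. Foxf1 had processed signals of 989 and 1361 in the RNAs labelled Bmp4cKO and 667 and 824 in those labelled control. Foxf2 had 94.9 and 110 against 66.7 and 49.8, a low signal that was well above background in all 4 RNAs. For both genes the 2 Bmp4cKO values lay above the 2 control values. The log2 ratio of Foxf1 was 0.47 and 0.71, a mean of 0.59 ± 0.17, and that of Foxf2 was 0.42 and 0.73, a mean of 0.58 ± 0.22 (SD, n = 2 arrays each). Neither passed the threshold (limma adjusted p = 0.113 for Foxf1 and 0.132 for Foxf2), and each passed under 1 alternative, a variance prior with a trend on intensity. The pair stood at 1.51-fold and 1.49-fold, beside 5.71% of all probes and 10.9% of the family's with a mean change over 1.5-fold either way.

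The sequence that measures Foxf1 is shown because this gene is known to link hedgehog signals to Bmp4 expression in the ureter. The array holds 1 probe for it, at chr8:123610681-123610740 (mm9), with 28 G or C bases in 60 and no part marked.
Foxf1: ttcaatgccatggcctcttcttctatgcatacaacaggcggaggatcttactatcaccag

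Hedgehog pathway genes were also read beside the Foxf genes. Of 15 measured, limma called 0, and 6 had an unadjusted p under 0.05, beside 14.4% of all probes. On both arrays 2 were higher and 9 lower, beside 28.4% and 30.8% of all probes. The median log2 ratio was -0.15. Ihh, a hedgehog ligand, had the largest ratio of the list, 1.18 and 2.47 on the arrays (mean 1.82, limma adjusted p = 0.0655), and Cdon, a co-receptor, had a mean of -0.74, or -0.19 on a dimmer probe. Shh, the ligand made by the urothelium and named here outside the naming rule, had -0.60 and -0.83. Most smooth muscle genes stood higher beside the Foxf genes. Of 10 measured, 3 were called higher (beside 0.835% of all probes) and 0 lower, with a median of 0.78. On both arrays 8 were higher and 1 lower. Myh11, Actg2 and Cnn1, all genes of contractile proteins, had means of 2.48, 2.31 and 2.14. Myl9, Smtn and Synm did not share this rise, with means of 0.06, 0.06 and -0.19 on their brightest probes. The summed signal of the smooth muscle list was 86166 and 104358 in the RNAs labelled Bmp4cKO and 66847 and 79827 in those labelled control, with Lmod1 above background in no RNA. Of 13 endothelial genes limma called 0, and 5 had an unadjusted p under 0.05, beside 14.4% of all probes. On both arrays 11 were higher and 0 lower, beside 28.4% and 30.8% of all probes. The endothelial genes had a median of 0.29, led by Sox17 at 0.66 and Cldn5 at 0.62. Their summed signal was 43825 and 58963 against 38153 and 41862 in the RNAs labelled control, no member being below background in every RNA. The part of either cell type in the Foxf values was not tested.

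The Foxf genes each lie in a cluster with other forkhead genes, and the ratios differed within both clusters. On chromosome 13 the probes of Foxq1, Foxf2 (chr13:31723139-31723198) and Foxc1 (chr13:31902423-31902482) lie within 250 kb in mm9, and had mean log2 ratios of 0.96, 0.58 and -0.32. On chromosome 8 the probes of Foxf1, Foxc2 (chr8:123642693-123642752) and Foxl1 (chr8:123654402-123654461) lie within 43.8 kb, and had 0.59, -0.02 and -0.16. In each cluster the Foxf gene stood above the Foxc gene on both arrays. These differences between genes were not tested.

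Foxc1 and Foxc2 encode factors of paraxial and intermediate mesoderm and of vessels, and loss of Foxc1 in mice is known to give duplicated ureters. Foxc1 had processed signals of 1827 and 2025 in the RNAs labelled Bmp4cKO and 1984 and 2963 in those labelled control, which overlap. Its log2 ratio was -0.13 and -0.51 (mean -0.32 ± 0.27, SD, n = 2; limma adjusted p = 0.417). Foxc2 was bright in every RNA, at 12836 and 16189 against 12467 and 17671 in the RNAs labelled control. Its ratios of 0.06 and -0.11 had opposite signs (mean -0.02 ± 0.12, SD, n = 2 arrays; limma adjusted p = 0.972). Foxl1, a factor of gut mesenchyme, had ratios of 0.06 and -0.38, also of opposite signs.

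**Figure D3:**
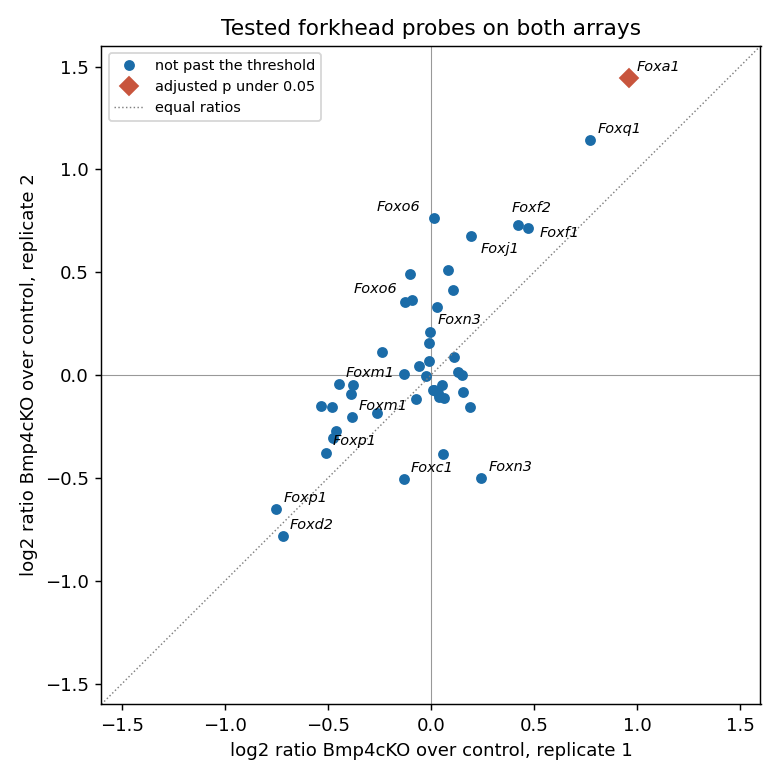
The log2 ratio of Bmp4cKO over control on replicate 1 (horizontal) is set against that on replicate 2 (vertical) for each of 46 tested forkhead probes, with a diamond for the probe past the threshold and circles for the rest. The probes of Foxa1, Foxq1 and the Foxf genes lie at the upper right, Foxd2 and a Foxp1 probe at the lower left, and a Foxn3 probe at 0.24 and -0.50 far from the line of equal ratios.

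The Foxd genes split. Foxd2, a factor of kidney mesenchyme, had processed signals of 3542 and 4050 in the RNAs labelled Bmp4cKO and 5574 and 7087 in those labelled control, without overlap. Its log2 ratio was -0.72 and -0.78, a mean of -0.75 ± 0.04 (SD, n = 2 arrays), the lowest of the 46 tested forkhead probes. It missed the threshold (limma adjusted p = 0.0557) and passed it under 6 of 15 alternatives. Its probe lies at chr4:114578944-114579003 (mm9). Foxd1, which marks the stromal progenitors of the kidney, was bright in every RNA, at 10657 and 15805 against 11508 and 16080 in the RNAs labelled control, which overlap. Its ratio was -0.07 and -0.12 (mean -0.10 ± 0.03, SD, n = 2; limma adjusted p = 0.819), from a probe at chr13:99126452-99126511 (mm9). Foxd3, which specifies the neural crest, had 45.2 and 119 against 54.9 and 72.5, with ratios of -0.10 and 0.49. Foxd4 had signals between 35.7 and 50.4 in the 4 RNAs and ratios of -0.13 and 0.0054.

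Most kidney stroma and nephron progenitor genes stood lower beside Foxd2. Of 13 measured, 4 were called lower (beside 0.965% of all probes) and 0 higher, with a median log2 ratio of -0.53. On the arrays 9 were lower on both, 0 were higher on both and 4 had opposite signs. The called members were Gdnf, the ligand that draws out the ureteric bud, at -2.15, Smoc2, a matrix gene, at -1.43, Wt1, of nephron progenitors, at -1.34 and Alx1, a homeobox gene, at -1.30. Six2, which defines nephron progenitors, had opposite signs on the arrays, 1.21 and -0.99. So did Tcf21, Meis1 and Pdgfrb, with means of 0.22, 0.14 and 0.0043. The list's summed signal was 130778 and 120771 in the RNAs labelled Bmp4cKO and 132099 and 181639 in those labelled control, and no member was below background in every RNA. Of 11 neural crest, Schwann cell and neuron genes 4 were called lower and 1 higher, beside 0.965% and 0.835% of all probes. Tubb3, a neuronal tubulin gene, stood at -1.52, Ret at -1.20 and S100b at 0.92. Sox10, the defining factor of crest and glia, stood at -0.07. That list's summed signal was 6387 and 6285 against 8267 and 9145 in the RNAs labelled control, with no member below background in every RNA. The part of kidney or nerve content in the Foxd values was not tested.

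Foxm1 drives the genes of late cell division and is itself on in dividing cells. Its brighter probe had processed signals of 1242 and 1757 in the RNAs labelled Bmp4cKO and 1520 and 2123 in those labelled control, which overlap. The log2 ratio was -0.39 and -0.20 (mean -0.29 ± 0.13, SD, n = 2; limma adjusted p = 0.381). On the second probe the mean was -0.25, from -0.45 and -0.04. Of 21 measured G2 and M phase genes, known as FOXM1 targets or markers of the same phase, limma called 0 (1 at an unadjusted p under 0.05) and the median was -0.12. In this list 12 members pointed in opposite directions on the arrays, among them Mki67 at 0.27 and -0.55. Cdk1, the kinase that starts mitosis, had the largest mean, 0.44, and its 3 tested probes ran from -0.14 to 0.44. Plk1, another mitotic kinase, stood at -0.20. The summed signal of the list, 226316 and 221469 against 218184 and 260594 in the RNAs labelled control, overlapped between the genotype labels.

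The Foxo genes encode factors that insulin and growth factor signals hold out of the nucleus. Their ratios were higher on replicate 2 than on replicate 1 in all 7 tested probes of the 4 genes, and none was called. Foxo6 had ratios of 0.01 and 0.76 (mean 0.39) and Foxo1 of 0.08 and 0.51 (mean 0.30, or 0.18 on a second probe). Foxo3 stood at -0.13 and 0.35, and both probes of Foxo4, an X-linked gene, were within 0.16 of 0 on each array. Of 20 measured genes known as FOXO targets, 2 were called lower (beside 0.965% of all probes) and 0 higher, with a median of 0.02. They were Fbxo32, a ubiquitin ligase gene of muscle wasting, at -1.003, and Cdkn1a, a cell cycle inhibitor gene, at -1.31, or -0.19 and -0.14 on its dimmer probes.

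Foxp genes, which encode repressors of lung, heart and nervous system development, stood lower in 3 of the 4 members, on the brightest probe and on both arrays. All 3 tested probes of Foxp1 and all 3 of Foxp4 were lower on both arrays, though none passed the threshold. The Foxp1 probe nearest the 5′ end (chr6:99112925-99112984, mm9, minus strand) had processed signals of 210 and 287 in the RNAs labelled Bmp4cKO and 378 and 462 in those labelled control, without overlap. Its log2 ratio was -0.75 and -0.65 (mean -0.70 ± 0.07, SD, n = 2; limma adjusted p = 0.0647), and it passed under 6 of 14 alternatives. The probe across an exon junction (chr6:98885382-98889719) had a mean of -0.44 ± 0.09 (adjusted p = 0.182) and the one nearest the 3′ end (chr6:98880084-98880143) a mean of -0.32 ± 0.23 (SD, n = 2 arrays each; limma adjusted p = 0.397). Foxp4 had means of -0.39, -0.37 and -0.34, the first 2 from probes whose starts are 6 bases apart. Foxp2 stood at -0.22 and -0.03 on its probes, and Foxp3, the factor of regulatory T cells, had signals between 24.5 and 32.2 and a mean ratio of -0.0046. Leukocyte genes gave 0 limma calls among 10 measured (1 at an unadjusted p under 0.05), led by Ptprc at -0.80 and C1qa at -0.25.

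The Foxp1 probes are shown in transcript order because their ratios differed in size while sharing a sign. No part of them is marked.
Foxp1 nearest the 5′ end: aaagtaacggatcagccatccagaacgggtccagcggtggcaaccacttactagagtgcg
Foxp1 exon junction: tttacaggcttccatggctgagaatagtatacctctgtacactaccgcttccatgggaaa
Foxp1 nearest the 3′ end: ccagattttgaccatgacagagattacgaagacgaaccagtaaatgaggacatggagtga

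Among the remaining tested genes none was called, and their means on the brightest probe lay between -0.24 and 0.44. Foxj1, the master regulator of motile cilia, had the highest, with signals of 23.8 and 53.5 in the RNAs labelled Bmp4cKO and 13.9 and 19.2 in those labelled control, 1 of the control values not being well above background. Its ratio was 0.20 and 0.67 (mean 0.44 ± 0.34, SD, n = 2; limma adjusted p = 0.309). With the processed signals in place of the normexp values its mean was 1.12 and it was called (limma adjusted p = 0.0209), while the other alternatives gave an adjusted p of 0.121 or more. Of 6 measured genes of multiciliated cells limma called 0 (2 at an unadjusted p under 0.05), with Tekt1 at -0.65 and Dnaic1 at 0.57. Foxn2 had positive ratios, 0.11 and 0.41, and Foxj2 negative ones, -0.39 and -0.09. Foxn3 disagreed with itself, with 0.24 and -0.50 on its brighter probe and -0.0037 and 0.21 on the other. Foxi1, known from intercalated cells of the kidney's collecting duct, had 0.11 and 0.09, and Foxi2 had 0.13 and 0.02. Foxe1, Foxh1, Foxi3, Foxj3, Foxk1, Foxk2, Foxr1 and Foxs1 had means between -0.06 and 0.07.

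Foxl2, the factor of ovarian granulosa cells, has 2 probes whose starts are 48 bases apart on chromosome 9 and whose sequences share a run of 12 bases. The probe at chr9:98856894-98856950 (mm9) had processed signals of 8665 and 10271 in the RNAs labelled Bmp4cKO and 11302 and 10173 in those labelled control. The one at chr9:98856846-98856905 had 29.1 and 21.4 against 24.8 and 24.1, of which 1 Bmp4cKO value was not well above background. Their mean log2 ratios were -0.21 and -0.03, with no call. Which of them follows the Foxl2 transcript was not tested, and the sequences are shown because signals so far apart came from overlapping positions, with the shared run in capitals. The first has 49 G or C bases in 60, and its stated position spans 57 bases, and the second has 43.
Foxl2 first probe: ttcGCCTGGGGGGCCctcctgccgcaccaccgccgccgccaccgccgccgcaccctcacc
Foxl2 second probe: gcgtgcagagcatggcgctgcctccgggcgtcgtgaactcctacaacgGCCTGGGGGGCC

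Genes with no tested probe included Foxa2, Foxa3, Foxb1, Foxb2, Foxe3, Foxn1, Foxn4 and Foxr2. Of those named, all but Foxa2 were well above background in none of the 4 RNAs, so their ratios were not used. Foxe1 had a second probe of that kind beside the tested one.

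**Figure D4:**
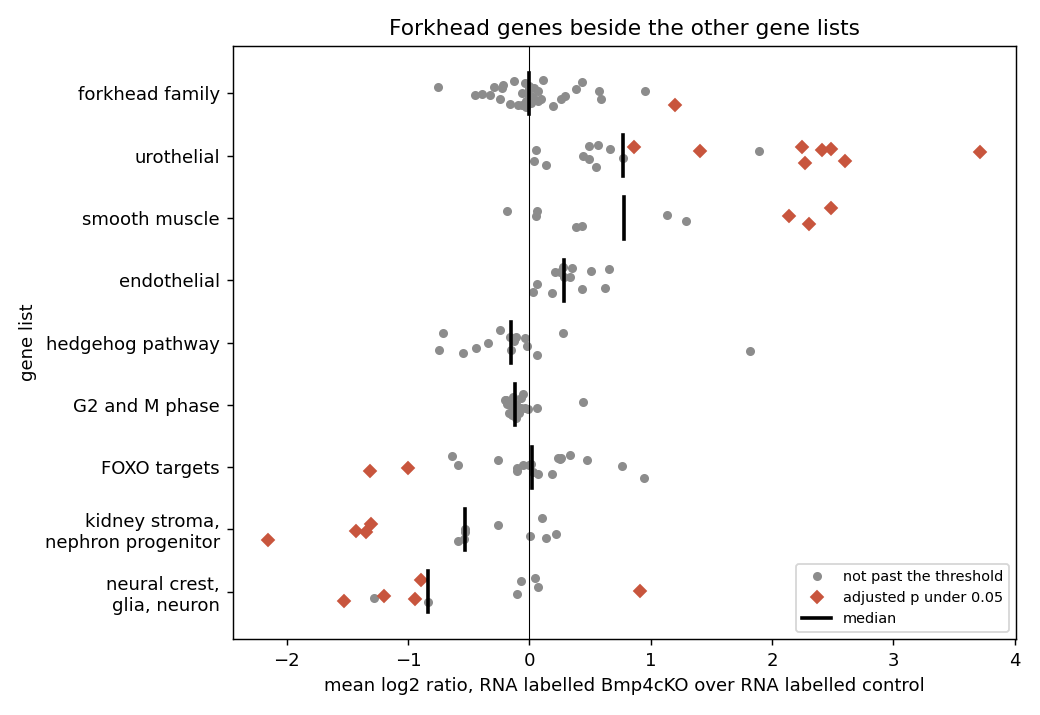
Each point is the mean log2 ratio of 1 gene's brightest tested probe over 2 arrays, in the forkhead family and in 8 other gene lists, with diamonds for genes past the threshold and a bar at each list's median. The forkhead family centres on 0 with 1 gene called, while urothelial and smooth muscle genes centre at 0.78 and kidney stroma and nephron progenitor genes at -0.53.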

How the data were processed

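Total RNA was labelled with AlexaFluor647 (red) or AlexaFluor555 (green) and hybridised to 2 Agilent arrays. Per the file headers and the submitters' processing notes, the authors quantified spots with Agilent Feature Extraction 10.7.3.1, with positions in mouse build mm9. Spots and their backgrounds were deposited as linear intensities, as were processed signals, which the software had detrended and dye-normalized. The deposited LogRatio column is on a log10 scale (red over green). The authors' deposited value table holds a score per probe, a signed fold whose direction no source states. For 99.65% of probes above background on replicate 1, and 99.56% on replicate 2, it equalled the scanner's ratio to within 0.01 on the log2 scale. Its sign followed red over green on replicate 1 and the opposite on replicate 2, and both columns had a median of 1.

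There were 44397 spots per array, including 1377 controls. The median ratio of spot to background intensity was 14.9 and 15.6 in green and 7.13 and 7.58 in red. No probe spot was saturated, and outlier marks (231 and 235 probe spots, none of them forkhead) were left out. Precision is limited by having 2 arrays.

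With limma 3.58.1 (R 4.3.3), normexp background correction (offset 50) was followed by loess within each array, giving control spots weight 0. Replicate spots were averaged per probe. Ratios were turned by the dye labels to log2 of Bmp4cKO over control. All 27676 probes well above background in both RNAs of a genotype label were fitted together, with lmFit and eBayes and Benjamini-Hochberg adjustment over all of them. Each probe had 1 residual degree of freedom and shared 4.11 prior ones, so the prior carries most of each test. A gene in a list is its brightest tested probe. Of 39429 probes, 31001 were named through the RefSeq table of GRCm38.p6. The fit was tested on simulated data. Named were Bmp4, Tbx18, each forkhead gene, and of every other list up to 4 called members by size of change or else the 2 largest. Some further list members were named outside this rule. The replicate number marks the array that held both RNAs, so the ratio is paired by construction. Members and lists were chosen with earlier results of these data known. The rule for members asks for plain background subtraction, which is among the alternatives here. Some genes of the family and of the lists are not reported here by name.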

Additional observations from a re-analysis of the deposited data

Results flagged for a closer look

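Replicate 1 is labelled female and replicate 2 male, and their dyes are exchanged. On them 20 tested forkhead probes had ratios of opposite sign, 43.5% of the family's tested probes beside 40.8% of all. None of these differences was tested, and sex label, dye and array cannot be told apart. The log2 ratio of replicate 2 minus that of replicate 1 was -0.74 and 0.21 on the probes of Foxn3, 0.59 for Foxd3, 0.48 for Foxo3, 0.46 for the dimmer probe of Foxo6, 0.35 for Foxk1, -0.35 for Foxj3 and -0.44 for Foxl1. It was -0.18 for Foxc2, 0.13 for Foxd4, -0.079 for Foxe1, -0.10 for Foxi3, -0.15 for Foxk2 and -0.15 for the dimmer probe of Foxl2. The remaining values were 0.17 and 0.080 for Foxo4, -0.12 for a probe of Foxp2, 0.10 for Foxp3, -0.24 for Foxr1 and -0.089 for Foxs1.

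Foxa2 gave signal in probes that the comparison left out. One probe was well above background in both RNAs of replicate 2, at 28.9 in the Bmp4cKO-labelled RNA and 32.2 in the control-labelled one. The other was so at 18.04 in the Bmp4cKO-labelled RNA of replicate 1 and at 26.1 in the control-labelled RNA of replicate 2.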

How the results depend on the processing

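No forkhead ratio that was called changed its sign, and the cause of the changes below was not tested. Over all probes 231 were higher and 267 lower. They became 438 and 508 with plain background subtraction, 550 and 634 with normexp at offset 0, 690 and 733 with the processed signals, 702 and 787 with a variance trend, and 436 and 504 with the authors' deposited table. With a robust prior 413 were lower. Median centring in place of loess left 0 and 0 (2147 at an unadjusted p under 0.05, 6 of them forkhead), and no normalization 0 and 1. Forkhead probes, 1 higher and 0 lower, became 2 and 2 with plain subtraction, offset 0 or a robust prior, 3 and 2 with the processed signals, 4 and 2 with a trend, 2 and 1 with the authors' deposited table or without the filter on dim probes, and 0 higher with median centring, no normalization or separate channels with neither a replicate block nor a dye term (1 higher with the dye term). The probes gained were those of Foxq1, Foxd2, the 5′ probe of Foxp1, and in 1 alternative each Foxf1, Foxf2 (variance trend) and Foxj1 (1.12 with the processed signals, against 0.44). The forkhead median, -0.02, was -0.051 with the processed signals. Separate channels with the array as replicate block gave the same 231 and 267 calls and 1 forkhead call as the ratios. With 1 array left out no test remains, and Foxa1 stood at 0.96 on replicate 1 and 1.44 on replicate 2. Without chromosomes X and Y 1 forkhead probe was higher and 0 lower. Signal over background limits the dim members, such as Foxf2 and Foxj1.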

Other observations

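Some list genes had probes that disagreed. Trp63, a factor of basal epithelial cells, stood at 0.04 on its brighter probe and at 2.56 on its dimmer one, which was called higher with 2.36 and 2.77 on the arrays. Elavl4, a neuronal gene, stood at -0.83 on its brighter probe, not called, and at -0.98 on its dimmer one, which was called lower. Among leukocyte genes the probes of Csf1r, a receptor of macrophages, ran from -0.68 to 0.04, and none was called.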
